A study of Mus musculus with 4 samples.

Results

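Expression of 10 genes of the Hedgehog pathway was followed in the mouse cortex at embryonic day 15.5, in neural progenitor cells (NPCs) and in young neurons. The genes were the rows of a deposited read count table with the symbols Gli1, Gli2, Gli3, Ptch1, Smo, Sufu, Boc, Cdon, Gas1 and Hhip, which are 10 of 23240 rows. All 10 were found, and all 10 passed the filter on low counts. Embryos of both groups carried the Nestin-GFP and DCX-mRFP transgenes, from heterozygous Nestin-GFP parents crossed with homozygous DCX-mRFP parents. NPCs were the cells sorted for green fluorescence and neurons those sorted for green and red together, with 2 RNA-seq libraries per group. The Nestin reporter marks progenitors and the doublecortin reporter marks newly formed neurons, so each group is what its reporter made visible and not a pure cell type. Libraries of a group are labelled as duplicates, with nothing on whether separate litters were used. Each p-value thus measures only how far these libraries differ, which may be technical.

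In the Hedgehog pathway, a secreted ligand binds the receptor Patched, with help from the surface proteins Boc, Cdon and Gas1. Patched without ligand keeps the membrane protein Smoothened inactive, and ligand binding releases it. Active Smoothened, acting in the primary cilium, frees the Gli transcription factors from Sufu. Gli3 is mainly cut into a repressor when no signal arrives, Gli2 mainly acts as an activator, and Gli1 is both an activator and a target gene of the pathway. Ptch1 and Hhip are also targets, so that the pathway induces its own inhibitors. In the embryonic forebrain the ligand is known for patterning ventral regions, and Gli3 for being needed to form the dorsal telencephalon, from which the cortex arises.

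Levels are given as CPM, with the mean ± SD of n = 2 libraries per group. CPM is a gene's count divided by the product of its library's total count and TMM factor, on a fixed scale shared by all libraries. Each log2 change is that of neurons over NPCs ± standard error, and p-values come from the quasi-likelihood test of edgeR, adjusted by Benjamini-Hochberg over all 15292 genes tested. Each library held between 52611828 and 55615142 counts.

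All 10 genes were lower in neurons than in NPCs. The median log2 change was -1.96, where the median of all genes tested was -0.02. Each of the 10 passed an adjusted p of 0.05 as higher in NPCs, as did 36.9% of all genes tested, while 35.8% were higher in neurons and 72.6% passed in either direction. Where a 2-fold difference or more was also required, 8 of the 10 were higher in NPCs, against 18.5% of all genes. For each of the 10, both NPC libraries lay above both neuron libraries, which held for 44.0% of all genes. In bulk RNA, fewer cells that express a gene and less RNA per cell cannot be told apart.

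Among the receptors and antagonists, Ptch1 had the smallest change of the 10 genes and Hhip one of the larger ones. Ptch1, the ligand's receptor and the inhibitor of Smoothened, was at 3.14 and 2.98 CPM in the NPC libraries and 1.904 and 2.36 CPM in the neuron libraries. The groups did not overlap, but the neuron level was still 69.7% of the NPC level. The log2 change was -0.52 ± 0.19 (edgeR adjusted p = 0.0197), from 181 and 178 deposited counts in NPCs and 93.1 and 122 in neurons. This was the one call of the 10 that did not hold under every setting. The adjusted p of Ptch1 was 0.129 without neuron replicate 1, 0.0876 without NPC replicate 1 and 0.112 with DESeq2. Hhip, a membrane-anchored protein that binds and sequesters the ligand, was at 1.60 and 1.49 CPM in NPCs and 0.287 and 0.407 CPM in neurons. Neuron libraries held 14.0 and 21 counts of Hhip, and both lay far below the 91.6 and 89.4 counts of the NPC libraries. The log2 change was -2.14 ± 0.32 (edgeR adjusted p = 1.36e-05).

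**Figure D1:**
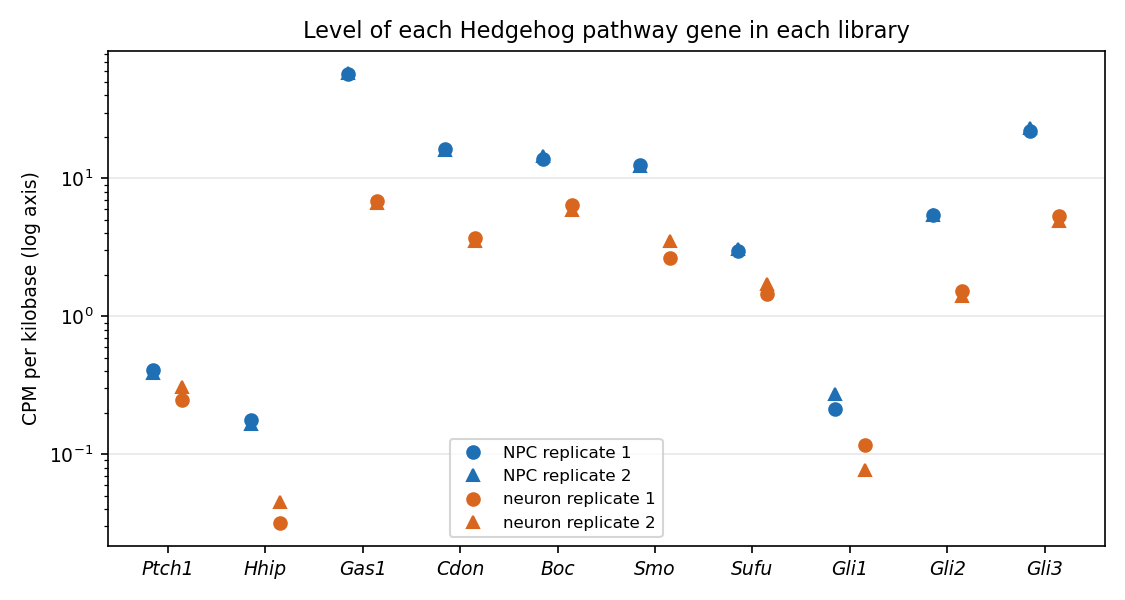
Level of each of the 10 genes in each of the 4 libraries, as CPM per kilobase of transcript on a log axis, with NPC libraries in blue and neuron libraries in orange. Each gene's NPC points lie above its neuron points, and Ptch1, Hhip and Gli1 lie below 1 CPM per kilobase in every library.

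The co-receptors fell by unequal amounts. Gas1, a lipid-anchored surface protein, was at 170 and 171 CPM in NPCs and 20.3 and 19.6 CPM in neurons. Duplicates were close, and the neuron level was 11.7% of the NPC level, the lowest share of the 10 genes. Its log2 change was -3.10 ± 0.06 (edgeR adjusted p = 6.65e-16), and 3.54% of all genes tested fell further. Cdon, a transmembrane protein with immunoglobulin and fibronectin repeats, was at 123 and 121 CPM in NPCs and 27.7 and 26.5 CPM in neurons. Its log2 change was -2.17 ± 0.06 (edgeR adjusted p = 1.09e-14), so that the neuron level was 22.2% of the NPC level. Boc, the paralog of Cdon, was at 61.8 and 64.7 CPM in NPCs and 28.6 and 26.2 CPM in neurons. Boc kept more of its level than its paralog, at 43.4%, and its log2 change was -1.21 ± 0.07 (edgeR adjusted p = 5.94e-11).

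These unequal falls changed the mix of co-receptor RNA. Per kilobase of transcript, Gas1 made up 65.5% and 65.4% of the summed level of the 3 genes in the NPC libraries and 40.4% and 41.2% in the neuron libraries. Boc went from 15.9% and 16.4% to 37.9% and 36.8%, and Cdon from 18.7% and 18.2% to 21.7% and 22.0%. Within each library, the log2 ratio of Boc to Cdon counts was -0.99 and -0.91 in NPCs and 0.05 and -0.02 in neurons. That of Gas1 to Cdon was 0.47 and 0.50 in NPCs and -0.45 and -0.44 in neurons. Neither ratio overlapped between groups, and the shift was many times the difference between duplicates. Both ratios were chosen after the values were seen, so their shifts only restate the unequal falls. The exact two-sided permutation test gave p = 0.333 for both ratios, which is the smallest p that 2 libraries against 2 allow.

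**Figure D2:**
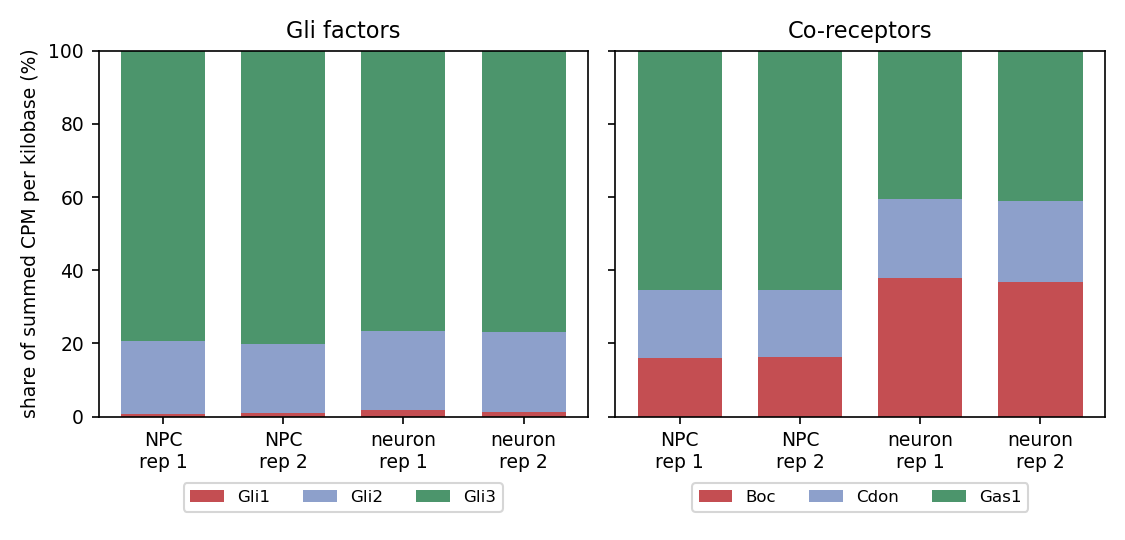
Share of each gene in the summed CPM per kilobase of the Gli factors (left) and of the co-receptors (right), in percent, with 1 bar per library. Gli3 has 76.6% to 80.2% of the Gli sum in the 4 libraries, and Boc has a larger and Gas1 a smaller share in both neuron libraries than in both NPC libraries.

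Smo and Sufu, which stand between the receptor and the Gli factors, both fell. Smo, the signal transducer, was at 47.4 and 46.8 CPM in NPCs and 9.93 and 13.3 CPM in neurons. NPC duplicates were nearly equal and neuron duplicates were not, although both lay far below the NPC level. The log2 change was -2.02 ± 0.10 (edgeR adjusted p = 1.21e-11), and leaving out 1 library at a time gave -2.24 to -1.82. Sufu, the cytoplasmic inhibitor that holds Gli proteins, was at 13.4 and 13.8 CPM in NPCs and 6.51 and 7.71 CPM in neurons. Its fall was the second smallest, to 52.3% of the NPC level, and the log2 change was -0.93 ± 0.11 (edgeR adjusted p = 8.37e-07).

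The RNA ratio of the inhibitor Ptch1 to the transducer Smo moved with these values. This ratio and that of Sufu to Gli3 were also chosen after the values were seen. Within each library, the log2 ratio of Ptch1 to Smo counts was -3.91 and -3.97 in NPCs and -2.38 and -2.49 in neurons. Groups did not overlap, with the ratio higher by 1.51 in neurons (exact two-sided permutation p = 0.333, the smallest possible). Per kilobase of transcript, the level of Smo was 31.5 ± 0.895 times that of Ptch1 in NPCs and 11.1 ± 0.578 times in neurons (SD, n = 2). The size depended on the length used, at 38.8 ± 1.11 and 13.7 ± 0.713 times with the union of all annotated exons. The inhibitor Sufu likewise gained on Gli3, with log2 count ratios of -3.74 and -3.78 in NPCs and -2.74 and -2.38 in neurons.

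Promoters are shown for Smo, Ptch1 and Sufu, which share a direction of change and differ in its size, as the 10 genes did as a whole. Each run is the 250 bases before 1 annotated start from RefSeq (GRCm38.p6), 5′ to 3′ on the gene's strand, and each of the 3 genes has more than 1 RefSeq transcript. Capitals mark the GC box GGGCGG and the CCAAT box CCAAT on either strand.
Smo (chr6:29735247-29735496, plus strand): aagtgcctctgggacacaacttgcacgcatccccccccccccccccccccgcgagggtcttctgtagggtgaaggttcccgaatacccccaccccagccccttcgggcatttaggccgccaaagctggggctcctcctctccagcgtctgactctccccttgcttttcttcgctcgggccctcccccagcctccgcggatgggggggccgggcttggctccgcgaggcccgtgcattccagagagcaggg
Ptch1 (chr13:63565736-63565985, minus strand): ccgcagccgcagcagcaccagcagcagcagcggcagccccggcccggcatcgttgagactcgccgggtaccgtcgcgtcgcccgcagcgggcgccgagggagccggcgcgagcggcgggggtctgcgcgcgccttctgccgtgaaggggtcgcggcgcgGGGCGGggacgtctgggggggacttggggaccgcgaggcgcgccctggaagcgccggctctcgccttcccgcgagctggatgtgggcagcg
Sufu (chr19:46396646-46396895, plus strand): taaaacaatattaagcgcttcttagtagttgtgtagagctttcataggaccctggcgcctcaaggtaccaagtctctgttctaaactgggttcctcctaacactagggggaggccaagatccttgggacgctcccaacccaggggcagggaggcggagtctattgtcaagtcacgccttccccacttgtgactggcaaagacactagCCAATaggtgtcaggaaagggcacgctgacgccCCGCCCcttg
The Smo run held neither motif, the Ptch1 run held 1 GC box, and the Sufu run held 1 of each, with the CCAAT box starting 43 bases before the start. GC content was 68.4% for Smo, 78.4% for Ptch1 and 54.0% for Sufu, where the median of 32851 promoters of this length was 52.4%. Windows were found for 8 of the 10 genes, all but Gli1 and Boc. A GC box was in 6 of the 8 windows and in 32.7% of all promoters, and a CCAAT box in 2 of the 8 and 33.8% of all. GC content of the 8 windows ran from 42.8% for Cdon to 78.4% for Ptch1. All but that of Cdon were above the median of all promoters, and the motif counts were not adjusted for this. The windows of Gli3 and Gas1, however, lay within annotated exons of GENCODE M21 for all 250 bases and that of Cdon for 31 bases. Exons of any gene on either strand were counted, so these windows may lie within transcripts of these genes or of others. Of the 5 windows with no exon base, 4 held a GC box and 1 a CCAAT box. The Gli motif GACCACCCA, searched on both strands, was in 0 of the 8 windows and 0.225% of all promoters. Allowing 1 mismatch, it was again in 0 of the 8 and in 5.79% of all. The Rbpj motif TGGGAA, recognised by the transcription factor of the Notch pathway, was in 0 of the 8 and 21.6% of all. The motifs do not overlap each other in these windows, and a match or its absence describes only these letters.

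All 3 Gli factors fell, with the lowest fitted log2 change for Gli3 and the highest for Gli1. Gli3, the main source of Gli repressor, was at 179 and 190 CPM in NPCs and 43.6 and 40.1 CPM in neurons. Neuron libraries held 22.7% of the NPC level, and the log2 change was -2.14 ± 0.06 (edgeR adjusted p = 1.67e-14). Gli2, the main activator, was at 36.2 CPM in both NPC libraries and at 10.1 and 9.28 CPM in neurons. Its log2 change was -1.91 ± 0.08 (edgeR adjusted p = 1.83e-12). Gli1, the activator that is itself a target, was at 0.868 and 1.11 CPM in NPCs and 0.471 and 0.310 CPM in neurons. Groups did not overlap, on 50.1 and 66.0 deposited counts in NPCs and 23.0 and 15.8 in neurons. The log2 change of Gli1 was -1.34 ± 0.35 (edgeR adjusted p = 0.00279), and leaving out 1 library at a time gave -1.65 to -1.06.

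The ratios among Gli factors within a library do not depend on scaling between libraries. The log2 ratio of Gli2 to Gli3 counts was -2.31 and -2.39 in NPCs and -2.12 and -2.11 in neurons, a shift of 0.23. That of Gli1 to Gli3 was -7.69 and -7.42 in NPCs and -6.53 and -7.01 in neurons, a shift of 0.78. That of Gli1 to Gli2 was -5.38 and -5.03 in NPCs and -4.42 and -4.90 in neurons, a shift of 0.55. None of the 3 ratios overlapped between groups, and each was higher in neurons, with p = 0.333 in the exact permutation test, the smallest possible. For both Gli1 ratios the SD of the neuron duplicates was 0.34, so these shifts were not far beyond the spread. Per kilobase, Gli3 held 79.8% ± 0.505 of the summed Gli level in NPCs and 76.7% ± 0.224 in neurons (SD, n = 2). Gli2 held 19.3% ± 0.623 and 21.8% ± 0.108, and Gli1 held 0.859% ± 0.118 and 1.43% ± 0.332.

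**Figure D3:**
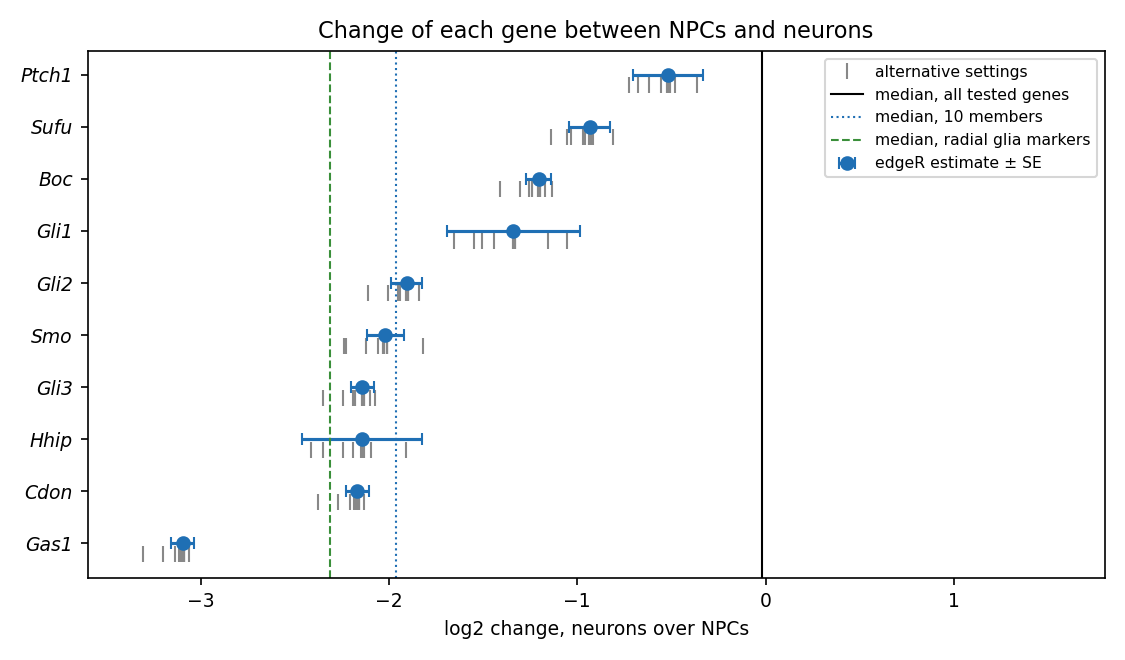
Log2 change of each gene in neurons over NPCs (points) with its standard error (bars), and its value under the alternative settings (grey marks). Points run from -3.10 for Gas1 to -0.52 for Ptch1, all left of the median of all tested genes at -0.02, and 1 of them, Gas1, lies left of the median of the radial glia markers at -2.31.

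Levels were compared between genes per kilobase of the longest coding transcript of GENCODE M21, which may differ from the gene models the authors counted on. In NPCs, Gas1 was highest at 57.6 ± 0.405 CPM per kilobase, followed by Gli3 at 22.6 ± 0.901, Cdon at 16.2 ± 0.141, Boc at 14.2 ± 0.448, Smo at 12.5 ± 0.108, Gli2 at 5.46 ± 0.007 and Sufu at 3.01 ± 0.063. The 3 target genes came last, with Ptch1 at 0.397 ± 0.015, Gli1 at 0.243 ± 0.041 and Hhip at 0.170 ± 0.008 (all SD, n = 2). Duplicates of neighbouring genes did not overlap in this order with these lengths. Of 12968 tested genes with a length, 90.7% were lower than Gas1 in NPCs, and 13.0%, 9.15% and 6.69% were lower than Ptch1, Gli1 and Hhip. In neurons the order was Gas1 at 6.73 ± 0.179, Boc at 6.16 ± 0.378, Gli3 at 5.12 ± 0.301, Cdon at 3.61 ± 0.106, Smo at 3.07 ± 0.625, Sufu at 1.57 ± 0.187 and Gli2 at 1.46 ± 0.083 CPM per kilobase. Ptch1 at 0.276 ± 0.042, Gli1 at 0.096 ± 0.028 and Hhip at 0.038 ± 0.009 were again last. Libraries of Sufu and Gli2 overlapped in neurons, so these neighbours did not differ beyond their spread. With the union of all annotated exons as the length, the order of the means in NPCs was the same, but the target genes at its end were no longer apart. Ptch1 was then at 0.222 and 0.210 CPM per kilobase in the NPC libraries, Gli1 at 0.174 and 0.221 and Hhip at 0.176 and 0.164, so that Gli1 overlapped both of its neighbours. The exon union is much longer than the coding transcript for Ptch1 and Sufu, whose NPC means went from 0.397 to 0.216 and from 3.01 to 1.77 CPM per kilobase. In neurons Sufu and Gli2 changed places (0.925 and 1.41 CPM per kilobase).

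Neuron duplicates of 4 genes and NPC duplicates of 1 differed beyond counting error, and of these only those of Smo lay far apart for their level. Smo was higher in neuron replicate 2 than in replicate 1 by 0.42 on the log2 scale (95% exact binomial interval 0.25 to 0.59, counting error only). Of 1775 tested genes within 1.5-fold of its level in neurons, 1.69% had duplicates at least as far apart. Sufu was also higher in neuron replicate 2, by 0.24 (0.03 to 0.46), and Ptch1 was by 0.31 with an interval that reached below 0 (-0.09 to 0.72). Gli3 and Boc were lower in neuron replicate 2, with differences of -0.12 (-0.21 to -0.03) and -0.13 (-0.23 to -0.02). Of genes within 1.5-fold of their level in neurons, 20.6% had duplicates at least as far apart as Sufu, 31.9% as Gli3 and 33.2% as Boc. In NPCs, Gli3 was the 1 gene of the 10 whose duplicates differed beyond counting error, by 0.08 (0.04 to 0.12), and 15.1% of genes near its level were at least as far apart.

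RNA of the 3 ligands was scarce in both groups. Shh, the ligand that patterns the ventral forebrain, had 2.95 and 11.3 counts in the NPC libraries and 5.36 and 17.98 in the neuron libraries. Ihh, its paralog, had 6 and 12 counts in NPCs and 8 and 10.9 in neurons. The groups overlapped for both, and neither passed (edgeR adjusted p = 0.245 and 0.662). Dhh, the third paralog, had 49.7 and 37 counts in NPCs and 2 and 4 in neurons, and was higher in NPCs (edgeR adjusted p = 1.79e-05). Of the 8 genes of ligand supply tested, 3 passed as higher in NPCs and 2 as higher in neurons (median log2 change -0.02), where 36.9% and 35.8% of all genes tested did. Scube1, of a family of secreted proteins that help release the ligand, rose from 13.6 and 13.2 CPM to 43.0 and 52.7 CPM, a log2 change of 1.84 ± 0.09.

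Genes that carry or regulate Smo and Gli proteins in the cilium split much as all genes did. Of 16 tested, 6 passed as higher in NPCs and 7 as higher in neurons (median -0.01), against 36.9% and 35.8% of all genes. The counts became 9 and 3 with library size as the only scaling, under which the shares of all genes also moved, to 49.8% and 25.1%. They were 5 and 6 with DESeq2 (29.1% and 29.2% of all genes) and 5 and 7 with limma-voom (36.9% and 35.7%). Evc, a ciliary partner of Smoothened, fell from 9.71 and 10.3 CPM to 1.97 and 1.898 CPM, a log2 change of -2.37 ± 0.14. Ankmy2, which acts on ciliary adenylyl cyclases, rose from 34.3 and 32.4 CPM to 71.1 and 69.2 CPM, a log2 change of 1.07 ± 0.06. Mgrn1, a ubiquitin ligase that acts on Smoothened, had the highest level of the list and a log2 change of 0.28 ± 0.06, which was 0.07 and did not pass with library size as the only scaling.

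Kinases and turnover factors of Gli proteins were mostly higher in neurons, by small amounts. Of 16 tested, 12 were higher in neurons and 2 in NPCs (median 0.39), against 35.8% and 36.9% of all genes. Scaling by library size alone gave 9 and 3, against 25.1% and 49.8% of all genes. None of the 16 passed with a change of 2-fold or more by this test, as 29.9% of all genes did in either direction. Prkacb, a catalytic subunit of protein kinase A, which starts the processing of Gli3, rose from 148 and 150 CPM to 253 and 262 CPM, a log2 change of 0.79 ± 0.05. Prkar1a, the regulatory subunit with the highest level of the list, had a log2 change of 0.39 ± 0.05. Stk36, the fused kinase, went the other way with a log2 change of -0.44 ± 0.08.

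Genes reported as Hedgehog targets in various tissues were mostly higher in NPCs, with 7 of 8 tested higher there (36.9% of all genes), 1 higher in neurons and a median of -1.28. The count depended on the method, as 5 of 9 passed as higher in NPCs with DESeq2, against 29.1% of all genes. It was also lower when some single libraries were left out, while leaving out each in turn gave medians of -1.30 to -1.26. Ccnd2, a cyclin of the G1 phase with the highest level of the list, fell from 967 and 952 CPM to 537 and 521 CPM, a log2 change of -0.86 ± 0.05. Mycn, a transcription factor of the Myc family, rose from 171 and 172 CPM to 274 and 268 CPM, a log2 change of 0.66 ± 0.05. Olig2, which specifies oligodendrocytes and motor neurons, fell from 25.2 and 25.5 CPM to 0.451 and 0.639 CPM, and it is also a marker of oligodendrocyte precursors. Nkx6-1, Foxa2 and Hand2, ventral or mesenchymal targets, had 0 counts in all 4 libraries.

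**Figure D4:**
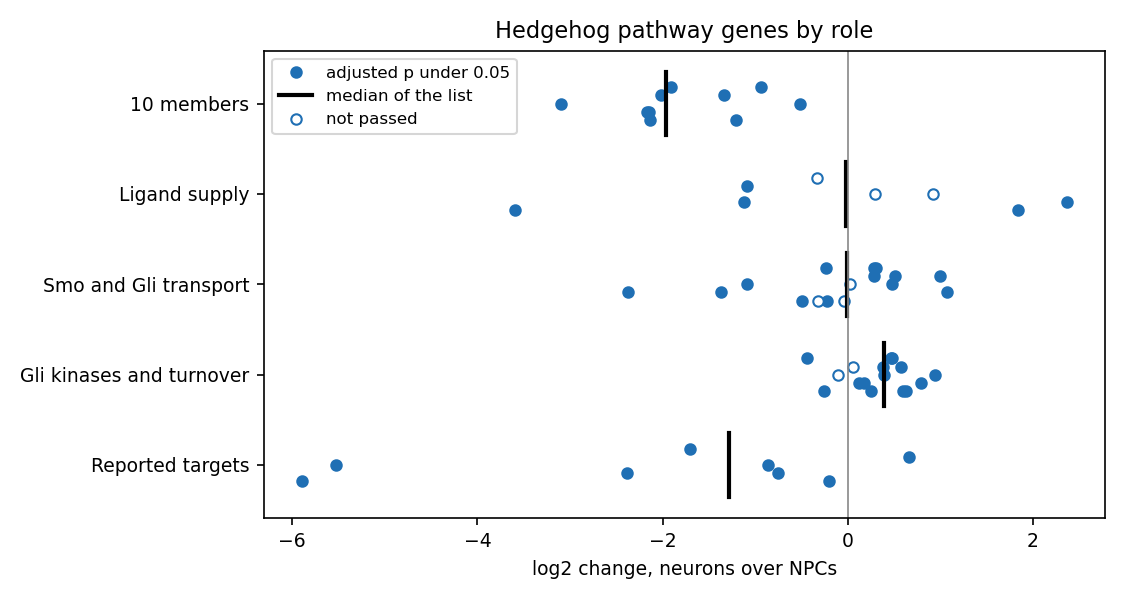
Log2 change of neurons over NPCs for tested genes of the Hedgehog pathway by role, with 1 point per gene, filled where it passed an adjusted p of 0.05, and a black bar at each list's median. The 10 members all lie below 0, the lists of ligand supply and transport spread to both sides of 0, and the kinases and turnover factors lie within 1 log2 unit of it.

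Markers of several cell types moved with the same comparison. For reference, 36.9% of all genes tested passed as higher in NPCs and 35.8% as higher in neurons. Of 15 radial glia markers 14 were higher in NPCs, with a summed level of 3940 and 3943 CPM in NPCs and 1161 and 1194 CPM in neurons, and all 6 intermediate progenitor markers were. Of 8 neuron markers 7 were higher in neurons, with a summed 2284 and 2322 CPM in NPCs and 8693 and 8911 CPM in neurons, so RNA of these markers was also present in the NPC libraries. All 8 oligodendrocyte precursor markers were higher in NPCs, at a summed 195 and 199 CPM against 5.71 and 6.01 CPM. The same held for all 10 endothelial markers (262 and 267 CPM against 12.2 and 11.6 CPM) and for all 7 pericyte and mural markers tested of 8 (235 and 242 CPM against 11.1 and 10.9 CPM). Of 8 markers of meninges and fibroblasts 7 were higher in NPCs (42.5 and 43.3 CPM against 3.87 and 3.41 CPM). All 7 microglia markers were also higher in NPCs (35.2 and 36.7 CPM against 16.2 and 15.2 CPM). Of 9 markers of ventral and interneuron lineages, 5 passed as higher in NPCs and 2 as higher in neurons, with a summed 195 and 190 CPM against 172 and 185 CPM. All 3 Cajal-Retzius markers tested were higher in neurons (39.6 and 40.1 CPM against 156 and 161 CPM). Choroid plexus markers summed to under 1 CPM in every library, and 1 of the 2 tested was higher in NPCs. The most abundant marker in NPCs was Vim for radial glia, Neurog2 for intermediate progenitors, Tubb3 for neurons, Pdgfra for oligodendrocyte precursors, Cldn5 for endothelium, Vtn for pericytes and Col3a1 for meninges. For the ventral, microglial, choroid plexus and Cajal-Retzius lists it was Dlx1, P2ry12, Ttr and Reln. None of these lists had a marker at 0 in all 4 libraries, and the part of these cells in the change of the 10 genes was not tested. Summed over the 10 genes, the level was 636 and 649 CPM in NPCs and 149 and 146 CPM in neurons, so neurons held 23.0% of the NPC level. The same share was 29.9% for radial glia markers, 20.2% for intermediate progenitor markers, 2.97% for oligodendrocyte precursor markers, 4.51% for endothelial markers and 4.61% for pericyte markers.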

How the data were processed

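The authors deposited 1 table of estimated counts per gene for 4 RNA-seq libraries of sorted cortical cells, with 1 column per library per the file headers. The submitters' processing notes name build mm9 and the tools TopHat 1.2.0, SAMtools 0.1.18 and CASAVA 1.9. Which tool counted reads, on which annotation and whether by strand is not given in the sources here, so overlapping and antisense genes cannot be told apart. Counts were rounded, and filterByExpr left 15292 of 23240 rows. Groups were compared with edgeR 4.0.16 (R 4.3.3, TMM factors of 0.928 to 1.08, quasi-likelihood F test, two-sided, unpaired, threshold 0.05). Dividing a log2 change by the square root of F gave its standard error.

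The members and lists were chosen with earlier results of these data known. Of 149 list entries beside the members, 148 were found, some under an older symbol (Foxf1a, Mtap2), and Disp1 was not analysed here. Named by rule were all members, the ligands, 1 further gene that is not reported here, per pathway list the smallest p in each direction and the highest mean CPM, and per marker list the highest CPM in NPCs. Ratios other than those among Gli factors, exon-union lengths and the Zic and Glis genes were added after values were seen. Alternatives were 3 other scalings, 2 filters, DESeq2 1.42.0, limma-voom (limma 3.58.1), a replicate block and leaving out each library.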

Additional observations from a re-analysis of the deposited data

How the results depend on the processing

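All 10 genes kept their direction under every alternative that gave them a value, 12 for each of 7 genes and 11 for Gli1, Ptch1 and Hhip, which the filter of 5 CPM in 2 libraries removed. Calls held except for Ptch1, whose log2 change was -0.51 with DESeq2 (adjusted p = 0.112) and -0.68 to -0.36 when libraries were left out in turn, with calls lost without NPC replicate 1 and without neuron replicate 1. The median log2 change of all genes was -0.02 with TMM, -0.12 with upper-quartile factors and -0.23 with library size only. With the filter of 5 CPM, genes called with at least a 2-fold change went from 4578 to 2599, and called genes went from 5 to 1 for ligand supply and from 8 to 5 for reported targets, because fewer genes were tested. With replicate number as a block, 11206 genes were called against 11108, and all 10 members were; deviations of same-numbered libraries correlated at 0.03 across genes, and nothing else pairs them. Gli1, Hhip and Ptch1 rest on under 200 counts per library, which limits their precision.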

Other observations

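Several Zic and Glis genes encode zinc finger factors related to the Gli family, and they were looked up after the values of the Gli factors were seen. Of 7 genes looked up, 5 were tested, and all 5 were higher in NPCs, as were 36.9% of all genes tested. Zic1 went from 4.24 and 4.36 CPM in NPCs to 1.19 and 0.756 CPM in neurons (log2 change -2.15 ± 0.21). Changes of the others were smaller or of like size, with Zic5 at -2.26 ± 0.20, Zic4 at -1.94 ± 0.23 and Zic2 at -1.64 ± 0.38 on the log2 scale. Glis2 was the most abundant of the 7 by CPM and changed least, from 17.2 and 17.5 CPM to 12.1 and 13.8 CPM, a log2 change of -0.42 ± 0.09. Glis1 and Glis3 were under 0.4 CPM in every library and were not tested. Meningeal cells are known to express Zic genes, and meningeal and fibroblast markers were higher in the same NPC libraries (7 of 8), and their part in these changes was not tested.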
